A study of Danio rerio with 6 samples.

Results

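The gbgt1-like genes of zebrafish encode relatives of GBGT1, a glycosyltransferase of the Golgi apparatus. In the table of ovarian gene counts, 9 of the 32519 Ensembl genes had a symbol beginning with gbgt1, in either case, and these are the family described here. They are gbgt1l1 (ENSDARG00000025275), gbgt1l2 (ENSDARG00000092718), gbgt1l3 (ENSDARG00000035555), gbgt1l4 (ENSDARG00000068503), gbgt1l6 (ENSDARG00000091969), gbgt1l8 (ENSDARG00000091944), gbgt1l9 (ENSDARG00000011283) and 2 genes that share the human symbol GBGT1 (ENSDARG00000019207 and ENSDARG00000091936). The family was selected on the counts of these same libraries, in which gbgt1l4 was far higher in mutant than in WT ovaries. That contrast is therefore given for all 9 genes as a description, without a test.

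Total RNA of zebrafish ovaries at 6 months post-fertilization (mpf) was sequenced in 3 WT and 3 ddx4-L mutant libraries. The genotyping described in the paper tells homozygotes from WT fish, while the sample titles do not state zygosity. Each genotype had biological replicates by the study's own account, but whether a library held 1 fish or a pool is not given in the sources used here. The p-values set the difference between the genotypes against the spread between these libraries. The mutants, labelled ddx4E4Δ, come from a single line made with CRISPR-Cas9 that has lost a few bases of the alternative exon of ddx4, which is part of the ovary-biased transcript ddx4-L, while the testis-biased transcript ddx4-S lacks that exon. The relation of the WT fish to the mutant line is not given in the sources used here, so the mutation and any other genetic difference between the fish cannot be told apart. Deposited counts summed to between 76520483 and 86263179 per library. These sums exceed the clean reads that the paper reports for each library, so they are not the sequencing depth. The ddx4 gene itself was counted in both genotypes, at 16042 to 18234 counts in WT and 18951 to 19856 counts in the mutant. This is a value for the whole gene that does not check the genotype. Levels are given as CPM, the counts of a gene per 1000000 counts of its library, after scaling between libraries by edgeR's TMM method.

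GBGT1 belongs to a small family of retaining glycosyltransferases that also holds the human ABO blood group enzymes and the mammalian enzyme that makes the alpha-Gal epitope. In mammals with an active enzyme, GBGT1 adds N-acetylgalactosamine to globoside, a glycolipid of the globo series, and so makes the Forssman glycolipid. The acceptor is built in steps, from ceramide to glucosylceramide, lactosylceramide, Gb3 and globoside. Which sugar and acceptor each zebrafish protein uses is not annotated in the files, so the gene names are used as labels of relationship only.

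The ovary label was met by the oocyte marker list, whose 19 genes together held between 39745 and 53455 CPM in each library. Mutant replicate 2 stood apart in the sum of the liver and gut markers. The marker list held 16 genes, of which the 2 APOBEC2 genes are known for muscle and were set aside after the values had been seen. The other 14, all of them with counts, summed to 2997 CPM there, against 35.8 and 13.8 CPM in mutant replicates 1 and 3 and 0.490 to 5.54 CPM in WT. Most of that sum came from vtg1 at 2118 CPM, tfa at 322, apoa1b at 258 and vtg2 at 218. Not all of the list was high there, since VIL1 and apoa4a held 0 and 3 counts. FABP2 held 15 counts there and 0 in every other library. Because of the high sum in mutant replicate 2, values of gbgt1l4 are also given without that library. The sum was higher in each mutant library than in each WT library, so leaving out mutant replicate 2 does not make the genotypes alike in this sum. In mutant replicate 3, tfa held 12.7 of the 13.8 CPM, against 0.510, 0.291 and 2.99 CPM of tfa in WT replicates 1, 2 and 3. There vtg1, at 0.479 CPM, lay within the WT range of 0.106 to 1.65 CPM. The sum without tfa was not computed. In bulk ovary RNA, fewer cells of one type and less RNA per cell cannot be told apart.

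Of the 9 genes, gbgt1l4 had by far the largest difference in CPM between the genotypes. WT replicates 1, 2 and 3 held 467, 407 and 773 counts of it, and mutant replicates 1, 2 and 3 held 13676, 14700 and 15537. These correspond to 6.27, 5.39 and 9.17 CPM in WT and to 164.1, 192.2 and 196.0 CPM in mutant ovaries. The 3 mutant libraries lay close together and far above WT, where replicate 3 was the highest.

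On average gbgt1l4 stood at 6.94 ± 1.98 CPM in WT and at 184.1 ± 17.4 CPM in mutant ovaries (SD, n = 3 each), a ratio of 26.5. The lowest mutant library exceeded the highest WT library 17.9 times. Within a genotype, the highest library exceeded the lowest 1.70 times in WT and 1.19 times in the mutant. The fitted log2 fold change was 4.73 (standard error, SE, 0.22). Without mutant replicate 2, the library with the highest sum of liver and gut markers, it was 4.69. Mutant replicates 1 and 3, which remain in that fit, also lay above each WT library in that sum. In mutant replicate 3 most of the sum came from tfa.

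**Figure D1:**
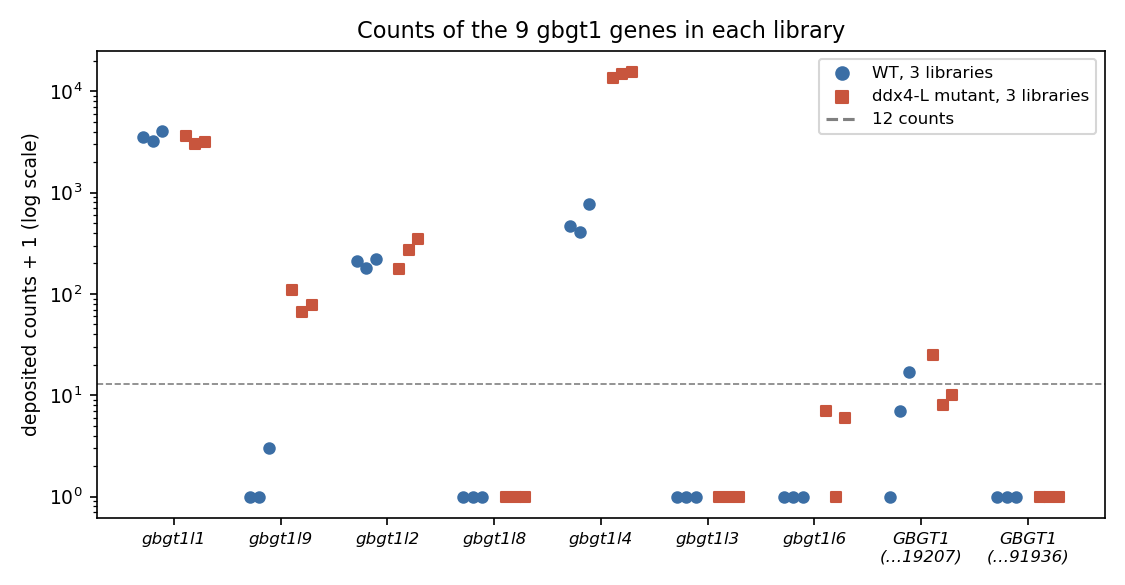
Deposited counts plus 1 of the 9 gbgt1 genes (log axis) in the 3 WT libraries (circles) and the 3 ddx4-L mutant libraries (squares), with a dashed line at 12 counts. The mutant libraries of gbgt1l4 sit between 13676 and 15537 counts, above WT libraries of 407 to 773 counts, while gbgt1l1 and gbgt1l2 overlap between the genotypes.

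In the order of fitted log2 fold changes, gbgt1l4 was number 101 from the top among 19353 genes. Ranked by CPM, which is not per length of the transcript, gbgt1l4 stood at number 9885 of the 19353 genes in WT and at number 846 in mutant ovaries.

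The second gene of the family with ample counts, gbgt1l1, was at a like level in both genotypes. WT replicates 1, 2 and 3 held 3517, 3267 and 4088 of its counts, against 3635, 3041 and 3149 in the same order of mutant replicates. On average it stood at 46.3 ± 2.73 CPM in WT and at 41.0 ± 2.24 CPM in mutant ovaries (SD, n = 3 each), and mutant replicate 1, at 43.6 CPM, overlapped with WT replicate 2, at 43.3 CPM. The fitted log2 fold change was -0.17 (SE 0.10). Total-count scaling brought it to -0.09, and it was below 0 under each of the other alternatives too.

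For gbgt1l2, the counts were 211, 180 and 221 in WT replicates 1, 2 and 3 and 174, 272 and 344 in mutant replicates 1, 2 and 3. The genotypes overlapped, since mutant replicate 1 was the lowest of all 6 libraries and mutant replicate 3 the highest. On average it stood at 2.61 ± 0.225 CPM in WT and at 3.33 ± 1.14 CPM in the mutant (SD, n = 3 each). The mutant libraries were thus more spread, with the highest 2.08 times the lowest, against 1.19 times in WT. The fitted log2 fold change was 0.35 (SE 0.35), and it was 0.11 without mutant replicate 3.

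The gene gbgt1l9 was counted at a low level in mutant ovaries and hardly at all in WT. WT replicates 1, 2 and 3 held 0, 0 and 2 counts, and mutant replicates 1, 2 and 3 held 108, 66 and 76, or 1.30, 0.863 and 0.959 CPM in the mutant. In every library 4 was the commonest count above 0, and if a fragment adds 4 to the table, 3 fragments add 12 counts, or 0.142 to 0.161 CPM. Lower values were read as not distinguishable from 0. All 3 WT libraries lay below that level and all 3 mutant libraries above it. The WT level of gbgt1l9 was not measurable at this depth. The fitted log2 fold change of 6.71 (SE 1.01) therefore depends on the near absence of WT counts, and neither its size nor its direction is interpreted.

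The counts of gbgt1l9 were small beside those of gbgt1l4. They made up 0.790%, 0.449% and 0.489% of the gbgt1l4 counts in mutant replicates 1, 2 and 3, and 0.569% over the 3 mutant libraries. Mutant replicate 1 was the highest in gbgt1l9 and the lowest in gbgt1l4. At the share found over the mutant libraries, the gbgt1l4 counts of WT replicates 1, 2 and 3 would go with 2.66, 2.32 and 4.40 counts of gbgt1l9, which lie below the level that can be told from 0. Thus the WT libraries are too shallow to tell whether gbgt1l9 differed between the genotypes in proportion to gbgt1l4 or beyond it. How the authors counted reads that map to several places is not stated, and reads shared between copies of the family could be split between them, so the value of gbgt1l9 is uncertain.

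The other 5 genes were at or near 0. No library had a count of gbgt1l3, gbgt1l8 or GBGT1 (ENSDARG00000091936). A count of 0 was read only as a level below 12 counts, or 0.142 to 0.161 CPM per library. The gene gbgt1l6 was listed at 6, 0 and 5 counts for mutant replicates 1, 2 and 3 and none in WT, all under 12 counts. GBGT1 (ENSDARG00000019207) was listed at 0, 6 and 16 counts in WT, and mutant replicates 1, 2 and 3 held 24, 7 and 9. Only WT replicate 3 and mutant replicate 1 exceeded 12 counts there, and the genotypes overlapped.

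By edgeR's filter on low counts, 4 of the 9 genes entered the fit, gbgt1l1, gbgt1l2, gbgt1l4 and gbgt1l9. Of these, gbgt1l9 entered through its mutant libraries only. In gbgt1l4 and gbgt1l9 each mutant library was higher than each WT library, and among all genes fitted this held for 14.3%. The count in the family follows from how the family was chosen and nothing is read from it.

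Summed over the family, WT replicates 1, 2 and 3 held 4195, 3860 and 5100 counts and mutant replicates 1, 2 and 3 held 17623, 18086 and 19120. The 9 genes together stood at 56.0 ± 4.70 CPM in WT and at 229.7 ± 16.0 CPM in mutant ovaries (SD, n = 3 each), a ratio of 4.10. Without gbgt1l4, the other 8 genes had 49.0 ± 2.94 and 45.6 ± 1.59 CPM (SD, n = 3), and the genotypes overlapped.

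The make-up of the family counts was turned around. In WT, gbgt1l1 held 82.9% ± 2.39 (SD, n = 3) and gbgt1l4 held 12.3% ± 2.51 (SD, n = 3) of the counts of the 9 genes. In mutant ovaries, gbgt1l1 held 18.0% ± 2.31 and gbgt1l4 held 80.0% ± 2.12 (SD, n = 3). WT replicate 3 had the largest share of gbgt1l4 among WT libraries, at 15.2%, and mutant replicate 1 the smallest among mutant libraries, at 77.6%. Transcript lengths were not at hand, so these are shares of counts and not of molecules.

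**Figure D2:**
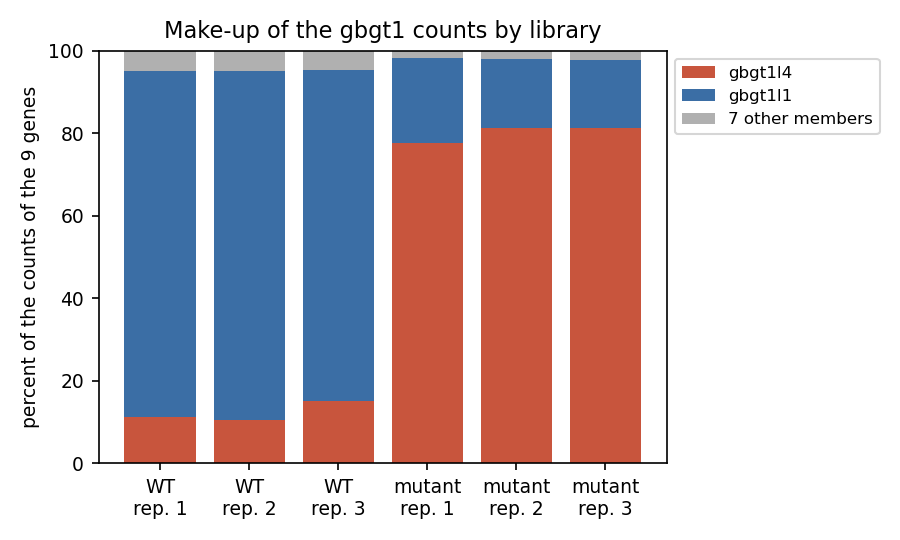
Percent of the counts of the 9 gbgt1 genes held by gbgt1l4, by gbgt1l1 and by the other 7 genes, as stacked bars for each of the 6 libraries. The bar of gbgt1l4 reaches 10.5% to 15.2% in WT and 77.6% to 81.3% in mutant libraries.

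Most of the family lies side by side in the genome. In the RefSeq annotation of a later assembly, GRCz12tu, used here for gene order only, 7 of the 8 genes named gbgt1 stood in 1 run of 11 annotated genes, in the order gbgt1l1, gbgt1l9, gbgt1l2, gbgt1l8, gbgt1l4, gbgt1l3 and gbgt1l6. The 5 annotated genes on each side of gbgt1l4 all belonged to this run. The 4 genes of the run outside the family were an unnamed protein-coding gene, a pseudogene and 2 lncRNAs, and these were not analysed here. The eighth gene, gbgt1l5, which also carries the name abo, lay further along the same chromosome, with 47 annotated genes between it and gbgt1l6, and neither GBGT1 gene of the count table was matched to it.

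Along the run, the levels did not follow the gene order. The nearest named genes to gbgt1l4, gbgt1l8 on one side and gbgt1l3 on the other, had no counts in either genotype. The 2 genes with higher counts in each mutant library, gbgt1l4 and gbgt1l9, were not next to each other. Between them lay gbgt1l2, whose genotypes overlapped, the pseudogene and gbgt1l8. At one end of the run gbgt1l1 was at a like level in both genotypes, and at the other gbgt1l6 stayed under 12 counts.

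The genes next to the run were examined after the values of the family had been seen. On the side of gbgt1l1, rnf128a, an E3 ubiquitin ligase, had a log2 fold change of -0.17 (SE 0.08, edgeR adjusted p = 0.30) and tbc1d8b, a Rab GTPase-activating protein, one of 0.02 (SE 0.15, edgeR adjusted p = 0.97). The connexin gene gja2 had no counts. On the side of gbgt1l6, arap1a, which encodes a GTPase-activating protein, had 5.29, 7.54 and 3.87 CPM in WT replicates 1, 2 and 3 and 2.41, 2.76 and 2.18 CPM in the same order of mutant replicates. The log2 fold change was -1.18 (SE 0.32, edgeR adjusted p = 0.092). The next fitted genes, ercc6l, a DNA helicase of mitosis, and eif1axa, a translation initiation factor, had log2 fold changes of 0.17 and 0.37 (adjusted p = 0.51 and 0.086 in edgeR). The genotypes did not overlap in rnf128a and arap1a, lower in the mutant, or in eif1axa, higher in the mutant. Higher values without overlap held for 14.3% of all genes fitted, and the share for lower values was not computed. Nothing is read from these.

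**Figure D3:**
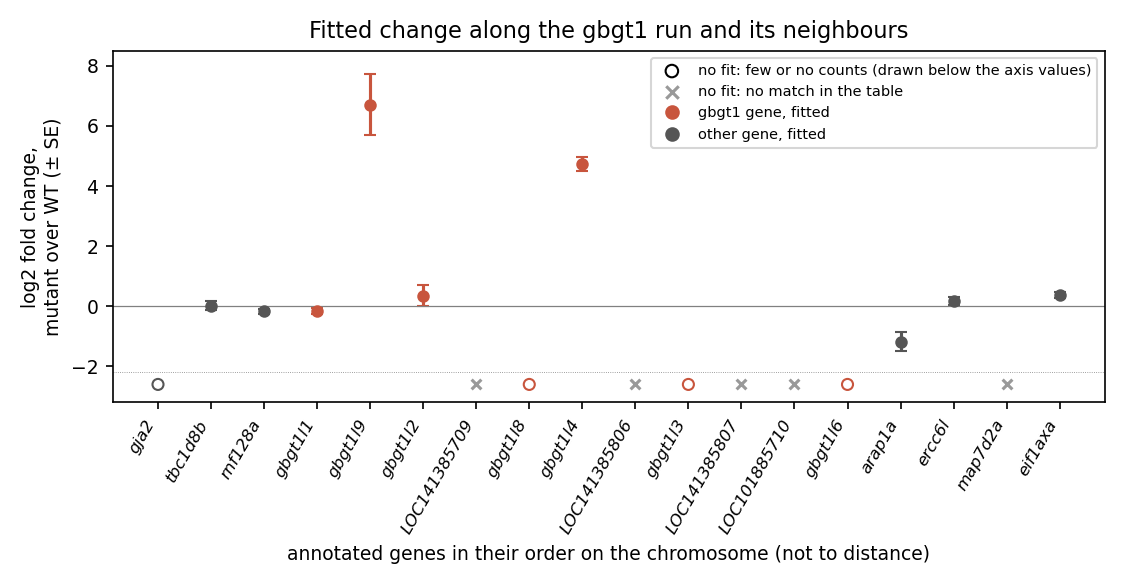
Fitted log2 fold change of mutant over WT with its standard error for the gbgt1 run and the nearest genes on each side, in gene order and not to distance. Open circles below the dotted line are genes with few or no counts and crosses are genes without a match in the count table. The gbgt1l4 point stands at 4.73 and that of gbgt1l9 at 6.71, a value that depends on the near absence of WT counts, while the fitted neighbours lie between -1.18 and 0.37.

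The genes whose profile over the 6 libraries was most like that of gbgt1l4 were looked for among 12267 genes whose log2 CPM averaged 1 or more. Likeness was measured as the Euclidean distance between log2 CPM values, each centred on the mean of the gene, and since the profile is mostly the step between the genotypes, the list mostly holds genes with a like step. The nearest was sspo (ENSDARG00000067859), which encodes SCO-spondin, a large secreted glycoprotein, at a distance of 0.954. It had 2.58, 3.18 and 2.57 CPM in WT and 92.7, 73.9 and 113.3 CPM in mutant replicates 1, 2 and 3. Next came si:dkey-192l18.10 (ENSDARG00000096447), the glypican gene gpc1b (ENSDARG00000090585), the lipid-transporting ATPase gene ATP10B (ENSDARG00000076230) and IGFBP3 (ENSDARG00000099144), which encodes a binding protein of insulin-like growth factors. Their distances ran from 1.26 to 1.47. Of these 5 genes, si:dkey-192l18.10 was the only one that, like gbgt1l4, had over 100 CPM in each mutant library, with 219.7, 124.2 and 137.3 CPM against 9.32, 8.20 and 7.69 CPM in WT.

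To describe the surroundings of the family, 6 lists of genes that make, use or break down glycosphingolipids and their building blocks were read in the same fit, with 76 genes fitted. By the quasi-likelihood test of edgeR, adjusted (Benjamini-Hochberg) over all 19353 genes, 3 of the 76 genes, or 3.95%, had an adjusted p under 0.05, against 4.57% of all genes. Of these, GBA3 was higher, as were 1.96% of all genes, and ORMDL3 and a UGP2 gene were lower in mutant ovaries, as were 2.61% of all genes. The median log2 fold change of the 76 genes was 0.06, and that of all genes was 0.014. With DESeq2, 9 of the 76 genes were called, against 12.1% of all genes with an adjusted p, and in edgeR 16 of the 76 had an unadjusted p under 0.05, against 19.9% of all genes. The names of the list of further relatives, abo, ggta1, a3galt2 and glt6d1, gave no gene in the table.

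Of the genes that build the acceptor, only the first steps were matched. UGCG makes glucosylceramide and B4GALT5 makes lactosylceramide, and the names a4galt, b3galnt1 and b4galt6 gave no gene. B4GALT5 (ENSDARG00000010301) had 24.8, 21.9 and 19.9 CPM in WT replicates 1, 2 and 3 and 31.6, 27.8 and 34.2 CPM in mutant replicates 1, 2 and 3. Each mutant library was thus higher than each WT library, which held for 14.3% of all genes fitted. Its log2 fold change was 0.49 (SE 0.14, edgeR adjusted p = 0.10). UGCG (ENSDARG00000058221) had 8.74, 10.2 and 7.89 CPM in WT and 7.60, 5.09 and 6.35 CPM in the mutant, with a narrow gap between the genotypes. The log2 fold change of UGCG was -0.49 (SE 0.23, edgeR adjusted p = 0.30). Neither gene was called by edgeR, 1 of the 2 had an unadjusted p under 0.05 (19.9% of all genes), and DESeq2 called 1 (12.1% of all genes).

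The ganglio- and lacto-series genes make the other branches from lactosylceramide, mostly by adding sialic acid or N-acetylglucosamine. None of the 10 fitted genes was called by edgeR, while 3 had an unadjusted p under 0.05 and DESeq2 called 1, against 19.9% and 12.1% of all genes. The sialyltransferase gene st3gal1 (ENSDARG00000079654), with the highest CPM of the list, had 186.5, 197.8 and 167.0 CPM in WT and 141.5, 101.4 and 163.2 CPM in the same order of mutant replicates. The log2 fold change was -0.44 (SE 0.17, edgeR adjusted p = 0.21).

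Among the genes that break glycosphingolipids down, 1 of 22 was called by edgeR, against 4.57% of all genes. In edgeR 2 had an unadjusted p under 0.05 and DESeq2 called 1, against 19.9% and 12.1% of all genes. GBA3 (ENSDARG00000031150), a beta-glucosidase of the cytosol, rose from 13.2, 10.7 and 8.93 CPM in WT replicates 1, 2 and 3 to 29.9, 35.3 and 30.8 CPM in mutant replicates 1, 2 and 3. The log2 fold change was 1.55 (SE 0.18, edgeR adjusted p = 0.00629), and the call held whichever of the 6 libraries was dropped.

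In the list of ceramide synthesis and transfer, edgeR called 1 of 30 genes, against 4.57% of all genes. An unadjusted p under 0.05 was found for 8 in edgeR and DESeq2 called 4, against 19.9% and 12.1% of all genes. ORMDL3 (ENSDARG00000025555), which restrains the first enzyme of sphingolipid synthesis, fell from 31.2, 23.6 and 32.8 CPM in WT replicates 1, 2 and 3 to 13.1, 13.9 and 14.1 CPM in the same order of mutant replicates. The log2 fold change was -1.09 (SE 0.16, edgeR adjusted p = 0.014). The call was lost without WT replicate 1, mutant replicate 1 or mutant replicate 2 (adjusted p = 0.052, 0.059 and 0.054 in edgeR). It was also lost with the replicate number as a block (adjusted p = 0.054 in edgeR). ORMDL3 was lower in each mutant library than in each WT library. The share of all genes with that pattern was not computed, and nothing is read from it.

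In the list of nucleotide sugar supply, edgeR called 1 of 12 genes, against 4.57% of all genes. In this list 2 had an unadjusted p under 0.05 in edgeR and DESeq2 called 2, against 19.9% and 12.1% of all genes. UGP2 makes UDP-glucose, the sugar donor for glucosylceramide, and 2 genes carried this symbol. UGP2 (ENSDARG00000005578) fell from 18.9, 37.2 and 16.9 CPM in WT replicates 1, 2 and 3 to 0.324, 1.69 and 0.341 CPM in mutant replicates 1, 2 and 3, a log2 fold change of -4.96 (SE 0.76, edgeR adjusted p = 0.015). Both genotypes had their highest value in replicate 2, and the call was lost without mutant replicate 1 or mutant replicate 3 (adjusted p = 0.057 and 0.053 in edgeR). The other UGP2 gene (ENSDARG00000008200) held most of the UGP2 counts, with 214.0 ± 22.1 CPM in WT and 225.2 ± 16.7 CPM in mutant ovaries (SD, n = 3), and overlapped between the genotypes.

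**Figure D4:**
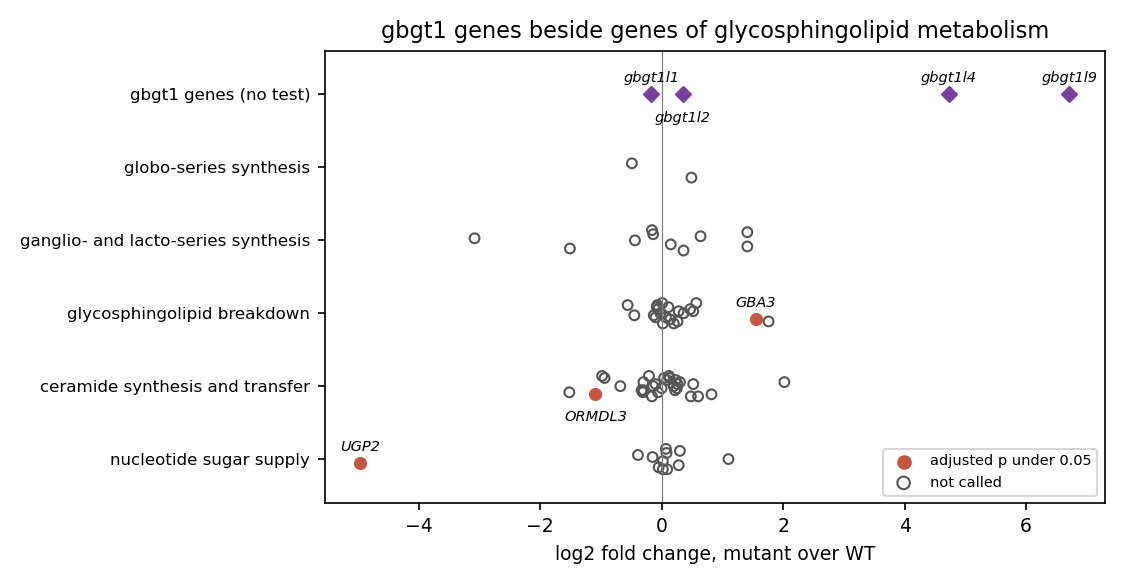
Fitted log2 fold changes of mutant over WT for the 4 fitted gbgt1 genes (diamonds, without a test) and for the genes of 5 lists of glycosphingolipid metabolism, with genes of adjusted p under 0.05 filled. Among the lists GBA3 lies at 1.55, ORMDL3 at -1.09 and UGP2 at -4.96, while gbgt1l4 lies at 4.73.

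Marker lists of other ovarian cell types were set beside these values. Granulosa and theca markers, 11 genes all with counts, summed to 67.4 to 98.0 CPM in WT and 102.1 to 109.8 CPM in mutant libraries, without overlap. The gap came from CYP17A1, a steroid-making enzyme, with 74.3, 72.6 and 33.0 CPM in WT and 78.6, 89.0 and 86.3 CPM in the mutant. Without it, a check added after seeing the data, the other 10 genes summed to 21.4, 25.4 and 34.4 CPM in WT and to 31.2, 17.2 and 15.8 CPM in the mutant, with overlap. Stroma and vessel markers, 12 genes all with counts, summed to 42.3 to 121.7 CPM in WT and to 226.1, 41.2 and 117.2 CPM in mutant replicates 1, 2 and 3. Immune markers, 16 genes all with counts, summed to 29.5 to 100.1 CPM in WT and to 135.3, 45.1 and 131.5 CPM in mutant replicates 1, 2 and 3. Both lists were lower in mutant replicate 2 than in mutant replicates 1 and 3 and overlapped between the genotypes. Blood markers overlapped between the genotypes, at 8.03 to 21.6 CPM in WT and 7.57 to 9.65 CPM in mutant libraries. Epithelium markers summed to 986, 871 and 813 CPM in WT and to 1463, 802 and 1553 CPM in mutant replicates 1, 2 and 3. They overlapped through mutant replicate 2 only, and most of each sum came from epcam. Of the 11 fitted genes of this list, 9 had a log2 fold change above 0 and 2 one below 0. Among the latter, cldn7b had 139.1, 98.2 and 76.4 CPM in WT and 44.4, 38.7 and 55.7 CPM in mutant replicates 1, 2 and 3. The part of any of these cell types in the level of gbgt1l4 was not tested.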

How the data were processed

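The authors deposited 1 table of estimated counts per Ensembl gene for the 6 libraries (build GRCz11). The submitters' processing notes name HISAT2, StringTie, RSEM and DESeq2, whereas the methods of the study name STAR and featureCounts, and the annotation, the use of strand and the treatment of reads that map to several genes are not given in the sources used here. Library totals ran from 76520483 to 86263179.

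Counts were scaled by TMM and tested with edgeR 4.0.16 (R 4.3.3, limma 3.58.1) by the quasi-likelihood test after filterByExpr, with genotype as the only term, in 19353 of 32519 genes, and p-values were adjusted by Benjamini-Hochberg over all of these with a threshold of 0.05. This fit was tested on simulated data. DESeq2 1.42.0, other scalings and filters, division of the counts by 4, a block for the replicate number, and fits without each library in turn were alternatives. Samples were grouped by the genotype label. Gene order was read from the RefSeq annotation of GRCz12tu, without coordinates. Python 3.11.15 and matplotlib 3.10.9 drew the figures.

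The members and the lists were chosen with earlier results of these data known. Named were the members, the list genes called or, in lists with none, that of highest CPM, the 5 annotated genes on each side of gbgt1l4, and the 5 nearest profiles. UGCG, the second UGP2 gene, CYP17A1 and the genes beside the run were added after values had been seen.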

Additional observations from a re-analysis of the deposited data

How the results depend on the processing

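The log2 fold change of gbgt1l4 lay between 4.57 and 4.98 in the fits that left out 1 library and between 4.71 and 4.80 under the other alternatives, and its share of the family counts between 10.8% and 13.1% in WT and between 79.4% and 81.3% in the mutant. Without 1 library, gbgt1l1 lay between -0.23 and -0.14, gbgt1l2 between 0.11 and 0.59, and gbgt1l9, whose alternatives were added after seeing the data, between 6.22 and 9.34, where the highest value came without WT replicate 3, the only WT library with a count. Division of the counts by 4 brought gbgt1l9 to 7.35, and total-count scaling, which moved the median of all genes from 0.014 to 0.096, brought gbgt1l1 to -0.09. No value changed direction. For gbgt1l9 neither the direction nor the size is read as a result. It entered the fit through its mutant libraries only, its WT level was not measurable and the size depends on the near absence of WT counts.

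edgeR called 884 genes, 380 to 553 without 1 library and 1098 with the counts divided by 4, and DESeq2 called 2323. Of the glycosphingolipid lists, 3 genes were called, 1 to 3 without 1 library, where the lowest number came without mutant replicate 1, and 9 with DESeq2. The cause of these differences was not tested. Same-numbered libraries did not deviate together (r = -0.074, 0.083 and -0.018), so the replicate numbers were not taken as pairs. With the replicate number as a block, 325 genes and 2 list genes were called, and gbgt1l4 had a log2 fold change of 4.76. Only WT replicate 2 correlated best with the library of its own number.

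The fit gave no value for gbgt1l3, which had no counts, and the share of counts per coding length was not run, since no lengths were at hand. Counts under 12 per library cannot be told from 0, which limits gbgt1l9 in WT, gbgt1l6 and both GBGT1 genes.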
